A study of Mus musculus with 43 samples.

Results

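The ventromedial hypothalamic nucleus (VMH) was compared with 3 neighbouring hypothalamic nuclei, the arcuate nucleus (ARC), the dorsomedial nucleus (DMH) and the paraventricular nucleus (PVN), in laser-captured tissue profiled by RNA-seq. Its members were the 11 VMH libraries among the 41 libraries whose table columns matched a labelled sample, and they were set against 9 ARC, 11 DMH and 10 PVN libraries. All tissue came from male adult mice on the C57/BL6 strain label that carried a paternal deletion of Snord116 (B6(Cg)-Snord116tm1.1Uta/J), a cluster of small nucleolar RNA genes expressed from the paternal chromosome, so that the deletion was shared by every group compared here and wild-type nuclei were not analysed here. The mice were either fed ad libitum or fasted for 24 h before dissection, giving 5 fed and 6 fasted VMH libraries from 11 mice. Each library came from a dissected nucleus of 1 mouse rather than from sorted cells, its RNA was amplified before library preparation, and the libraries fell into 3 labelled batches, each of which held all 4 nuclei.

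The VMH lies in the medial hypothalamus beside the third ventricle and is known for its part in glucose balance, energy expenditure, defensive behaviour and female mating behaviour. Its projection neurons are largely glutamatergic, which means that they load glutamate into vesicles with the transporter encoded by Slc17a6. The surrounding nuclei hold more GABA neurons, which make GABA with glutamate decarboxylases such as Gad1 and load it with the transporter encoded by Slc32a1. Adult nuclei keep much of the transcription factor code that laid them out in the embryo, and Fezf1, a zinc-finger repressor, is part of that code in the VMH.

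The promoters of Fezf1 and of both vesicular transporters are shown because these genes carry the transmitter and identity contrasts described here. Each window is taken from RefSeq on GRCm38.p6 and runs from 250 bases before to 50 bases after an annotated start, written 5′ to 3′ on the strand of the gene, with matches to TAATTA or CAAGGTCA in capitals. The Fezf1 window lies at chr6:23248215-23248514 on the minus strand, the Slc17a6 window at chr7:51624387-51624686 and the Slc32a1 window at chr2:158610508-158610807, both on the plus strand.
Fezf1: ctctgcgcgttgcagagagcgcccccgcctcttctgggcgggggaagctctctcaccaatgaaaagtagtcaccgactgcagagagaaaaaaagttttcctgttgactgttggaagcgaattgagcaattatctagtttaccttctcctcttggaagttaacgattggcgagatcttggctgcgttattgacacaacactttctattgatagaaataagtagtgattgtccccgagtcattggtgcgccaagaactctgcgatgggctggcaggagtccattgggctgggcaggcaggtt
Slc17a6: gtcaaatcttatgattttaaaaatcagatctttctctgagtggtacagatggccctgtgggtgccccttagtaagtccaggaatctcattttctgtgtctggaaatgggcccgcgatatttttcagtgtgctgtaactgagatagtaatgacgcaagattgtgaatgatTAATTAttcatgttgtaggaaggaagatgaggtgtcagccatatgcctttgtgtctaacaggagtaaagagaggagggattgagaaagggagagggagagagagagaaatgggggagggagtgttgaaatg
Slc32a1: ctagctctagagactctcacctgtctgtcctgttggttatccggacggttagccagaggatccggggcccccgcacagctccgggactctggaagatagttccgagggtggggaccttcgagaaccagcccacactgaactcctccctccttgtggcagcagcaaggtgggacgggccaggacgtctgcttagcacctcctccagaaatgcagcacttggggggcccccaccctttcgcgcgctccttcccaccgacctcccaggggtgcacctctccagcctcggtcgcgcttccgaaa

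TAATTA, the core bound by many homeodomain factors and its own reverse complement, occurred once, in this Slc17a6 window, which is one of 2 listed for the gene. The other Slc17a6 window, at chr7:51621580-51621879, lies nearer the start of the gene annotation and held 0 matches. CAAGGTCA, an element bound by the nuclear receptor NR5A1, was searched on both strands and occurred in none of the 3 windows. Over all 32851 windows of this length, 5.29% held TAATTA and 1.56% held CAAGGTCA. Among genes with at least 1 window, TAATTA was present for 14 of 280 enriched genes, 9 of 261 depleted genes and 3.39% of the 7194 genes tested. CAAGGTCA was present for 5 of the enriched and 2 of the depleted genes, against 1.38% of the genes tested. These matches describe letters in the windows only.

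Expression was given as read counts relative to library size (CPM, per 1e6 mapped reads), and 10077 of 10127 genes that reached 1 CPM in at least 9 libraries were tested. Genes outside that table, among them Nr5a1, are not analysed here. A difference is stated as the VMH level minus the mean of the 3 other nuclei, each weighted equally, on the scale log2(CPM + 0.5), where a difference of 1 is about a factor of 2 in CPM, and a larger factor for genes near 0, whose change this scale understates. A gene was called enriched or depleted when the adjusted p was under 0.1 and the difference was at least 1 in size. In bulk tissue, fewer cells of a type and less RNA per cell cannot be told apart. The estimated depth, in units of 1e6 reads, ranged from 1.94 to 8.23 per library, with medians of 4.0 in VMH and 4.20 in the other nuclei. This depth is inferred from the CPM scale and is not the number of reads sequenced, for which the study gives a higher average. The first principal component held 11.6% of the variance, of which 89.3% lay between VMH and the other libraries, and batch took 88.2% of the variance of the third component. No VMH library fell among those of another nucleus on the first component.

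Of the genes tested, 410 (4.07%) were enriched in VMH and 376 (3.73%) were depleted, 7.8% in all. With a pseudocount of 2 in place of 0.5, 271 were enriched and 202 depleted. Under the smaller pseudocount, 278 (2.76%) were enriched and 192 (1.91%) depleted against the mean and also, at an adjusted p under 0.1 in the same direction, against each of the 3 nuclei. Every VMH library lay above every other library for 78 genes (0.774%) and below every other library for 24 (0.238%). The difference exceeded 2 on the log2 scale for 76 enriched genes and was under -2 for 58 depleted genes.

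Measured against one nucleus at a time, the number of genes was smallest against the DMH. There, 347 genes (3.44%) were higher and 402 (3.99%) lower in VMH, compared with 564 (5.6%) and 472 (4.68%) against the ARC and 609 (6.04%) and 546 (5.42%) against the PVN. For 199 of the 410 enriched genes the least enrichment was against the DMH, for 134 against the ARC and for 77 against the PVN. Signs were kept, so a nucleus on the opposite side of VMH counted as least even where another was closer in level. For the depleted genes the least depletion, counted in the same way, was more evenly spread. It was against the DMH for 136, the ARC for 113 and the PVN for the rest.

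**Figure D1:**
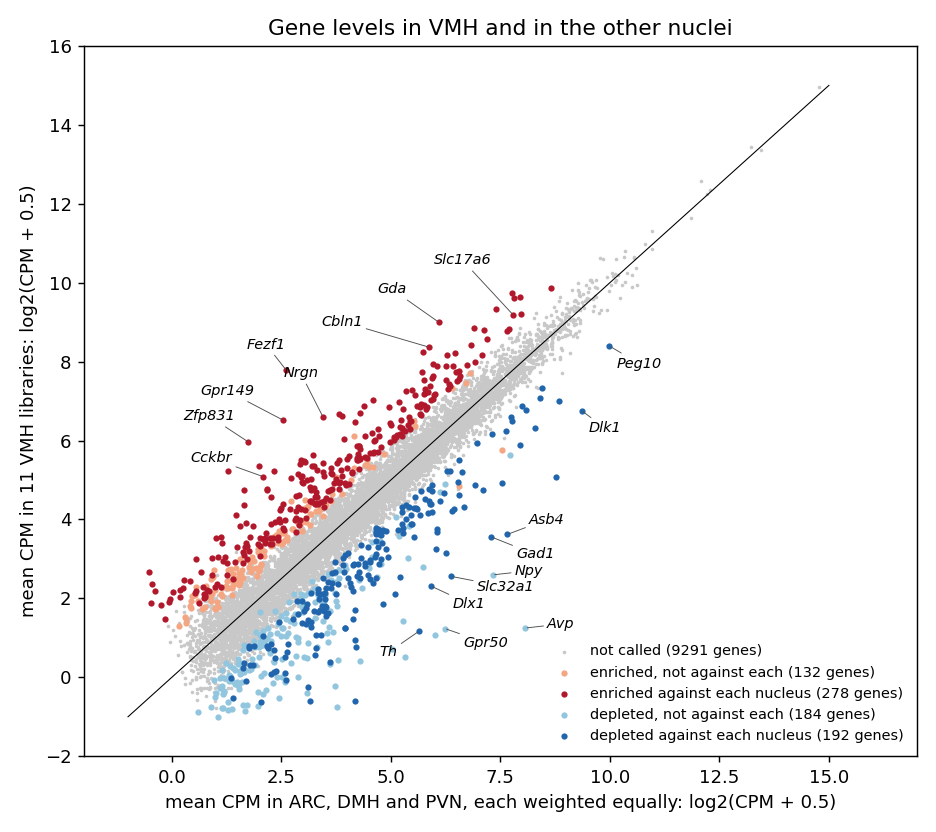
Mean level of each of the 10077 genes in the 11 VMH libraries (vertical) against the mean of ARC, DMH and PVN, each weighted equally (horizontal), both as log2(CPM + 0.5), with each point a gene and the line marking equal levels. The 410 enriched and 376 depleted genes are coloured. Fezf1, Zfp831 and Gpr149 lie far above the line and Th, Dlx1 and Gpr50 far below. The axes show mean CPM, whereas calls rest on the mean of log2 values. A called gene can therefore lie on the other side of the line, as the enriched gene Pmch does.

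The 3 genes that led the enrichment were Fezf1, Zfp831 and Gpr149, and each separated VMH from all other libraries. They were proposed as VMH markers with earlier results of these data known, so their values check the label and are not independent evidence. Fezf1 (ENSMUSG00000029697, minus strand, chr6:23245044-23248362, GRCm38) ranged from 172 to 256 CPM in VMH with a median of 230 and a mean of 219 ± 30.5 (SD, n = 11). In the ARC it ranged from 0.179 to 6.83 CPM, in the DMH from 3.26 to 10.5 and in the PVN from 2.89 to 21.9. The lowest VMH library was therefore far above the highest library of any other nucleus. The log2 difference was 5.67 ± 0.24 (SE, adjusted p = 8.48e-26), with 5.24, 5.91 and 5.70 in batches 1, 2 and 3.

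Zfp831, which encodes a zinc-finger protein (plus strand, chr2:174643534-174710832), ranged from 15.9 to 94.4 CPM in VMH with a median of 61.4, and reached at most 11 in the ARC, 5.09 in the DMH and 9.36 in the PVN. Gpr149, an orphan G protein-coupled receptor (minus strand, chr3:62529077-62605140), ranged from 60.6 to 120 CPM in VMH with a median of 92.8, and did not exceed 12.7 CPM elsewhere. For both genes the groups did not overlap. The log2 differences were 4.59 ± 0.31 for Zfp831 and 4.23 ± 0.28 for Gpr149.

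A list of 20 genes known for VMH neurons had 14 members among the genes tested. Of these, 9 (64.3%) were enriched, 8 of them against each nucleus, 1 (7.14%) was depleted and 4 were not called, where 4.07% of all genes tested were enriched and 3.73% depleted. The list had a median log2 difference of 1.80, beside -0.02 over all genes tested. Gda, guanine deaminase, ranged from 354 to 621 CPM in VMH with a median of 516, and from 35.5 to 104 elsewhere, without overlap, for a log2 difference of 2.95 ± 0.11 (adjusted p = 5.39e-29). Cnr1, the cannabinoid receptor found on presynaptic terminals, ranged from 175 to 337 CPM with a median of 306, above the 147 CPM reached in the PVN and 118 in the DMH, and differed by 2.06 ± 0.11. Nptx2, a pentraxin that gathers glutamate receptors at synapses, lay between 37.1 and 67.5 CPM in VMH with a median of 45.1, and differed by 2.90 ± 0.28.

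Nptx2 was also free of overlap, since its highest level elsewhere was 32.6 CPM, in the DMH. Cckbr, a receptor for cholecystokinin and gastrin, ranged from 21.6 to 54.2 CPM in VMH with a median of 29.4 and differed by 3.68 ± 0.38, although 1 PVN library reached 23.6 CPM. Sox14, a transcription factor gene, was near 0 in the PVN, where no library exceeded 0.403 CPM, and ranged from 4.25 to 19.5 CPM in VMH. It overlapped the ARC, which reached 8.29 CPM, and the DMH, which reached 13.3 CPM. Its log2 difference was 1.09 to the ARC and 1.84 to the DMH. The remaining enriched members met the PVN closely. Bdnf, a neurotrophin, had a median of 35.9 CPM in VMH and 20.7 in the PVN. Its difference to the PVN alone was 0.46, and it was not among the genes enriched against each nucleus. Tac1, the precursor of substance P, had medians of 78.2 CPM in VMH, 57.7 in the PVN, 37.0 in the DMH and 27.4 in the ARC, and its log2 difference of 1.03 ± 0.16 (adjusted p = 4.10e-07) stood at the threshold. Naming libraries by nucleus and mouse number, it was 0.99 without VMH-86 (fasted), 0.93 without VMH-111 (fed) and 0.95 without ARC-86 (fasted), each under the size for a call.

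The members not called included Pgr, Lepr and Mc4r. Pgr, the progesterone receptor, had its highest median in the ARC (50.2 CPM), with 38.1 in VMH, 22.8 in the DMH and 25.2 in the PVN, and a log2 difference of 0.48. Lepr, the leptin receptor, ranged from 5.51 to 36.1 CPM in VMH with a median of 15, between the PVN median of 5.31 and the ARC median of 31.9, and Mc4r, the melanocortin 4 receptor, had a median of 2.50 CPM in VMH and 9.25 in the PVN. The log2 differences of Lepr and Mc4r were -0.12 ± 0.25 and -0.20 ± 0.34, with adjusted p of 0.766 and 0.718. The depleted member was Dlk1, a Notch-related surface protein, described with the imprinted genes.

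**Figure D2:**
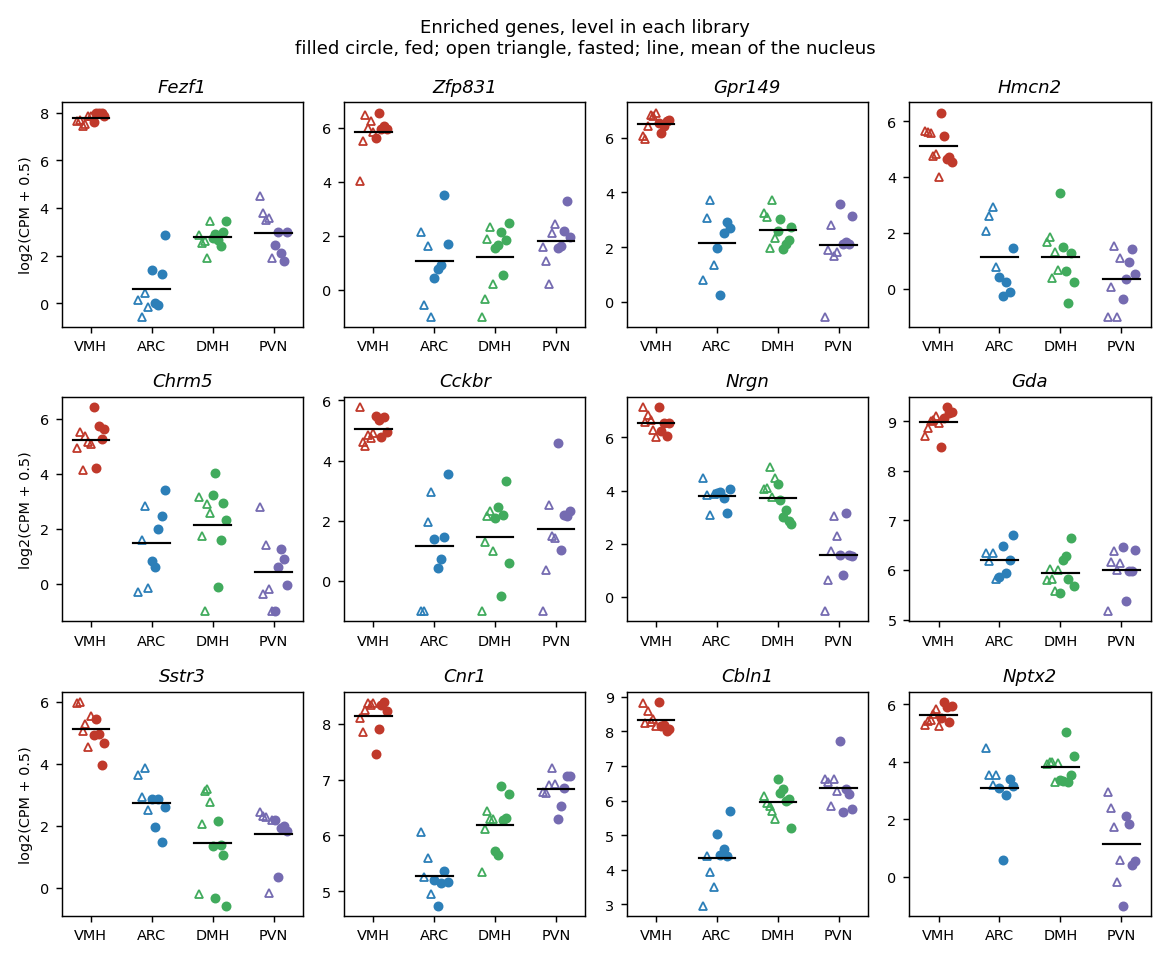
Level of 12 enriched genes in each library as log2(CPM + 0.5), by nucleus, with filled circles for fed mice, open triangles for fasted mice and a line at the mean of the nucleus. Fezf1, Zfp831, Gpr149, Hmcn2, Chrm5, Nrgn, Gda, Sstr3, Cnr1, Cbln1 and Nptx2 show no overlap between VMH and the others, and Cckbr overlaps through 1 PVN library.

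Chrm5, a muscarinic acetylcholine receptor, ranged from 16.8 to 84.9 CPM in VMH with a median of 38.2, above the 16 CPM of the highest DMH library, and differed by 3.90 ± 0.38. Of 33 receptor genes for amines, acetylcholine, purines and cannabinoids, 8 (24.2%) were enriched and 3 (9.09%) depleted, beside 4.07% and 3.73% of all genes tested. Chrm1, another muscarinic receptor, differed by 2.14 ± 0.25, and Htr2a, a serotonin receptor, by 1.96 ± 0.24, with VMH medians of 27.6 and 29.9 CPM and no other nucleus above a median of 9.50.

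Among 48 receptor genes for neuropeptides, 7 (14.6%) were enriched and 16 (33.3%) depleted, beside 4.07% and 3.73% of all genes, with a median difference of -0.35. Sstr3, a somatostatin receptor, ranged from 14.9 to 63.4 CPM in VMH with a median of 33.0, above all other libraries, and differed by 3.08 ± 0.30. Qrfpr, the receptor for the RFamide peptide QRFP, ranged from 9.28 to 37.7 CPM with a median of 14.2, also above all others, and differed by 2.90 ± 0.32. Hcrtr1, an orexin receptor, was low throughout, with a VMH range of 4.12 to 12.4 CPM, and differed by 2.37 ± 0.35. The other enriched receptors, named here outside the rule for named genes and after their values were seen, were Oxtr for oxytocin (2.09), Mc3r for melanocortins (1.75) and Oprd1 for enkephalin (1.64). Mc3r was not higher than in the ARC, where its log2 difference was -0.44.

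The depleted peptide receptors were led by Agtr1a, the angiotensin II receptor. It was listed at 0 in 6 of 11 VMH libraries and did not exceed 0.600 CPM in any, whereas the PVN ranged from 9.99 to 107 CPM, and it differed by -3.88 ± 0.35. Cckar, the other cholecystokinin receptor, ranged from 0 to 7.96 CPM in VMH with a median of 2.13, beside medians of 7.88 in the ARC, 16.5 in the DMH and 55.5 in the PVN, and differed by -2.91 ± 0.27. The pair of cholecystokinin receptors thus stood on opposite sides, with Cckbr high and Cckar low in VMH. The peptide gene itself, Cck, had a VMH median of 0.600 CPM and differed by -2.98 ± 0.37. Grpr, the gastrin-releasing peptide receptor, and Nmur2, a neuromedin U receptor, differed by -2.50 and -2.22.

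Ion channel genes were called in both directions. Of 58 potassium channel genes, 11 (19%) were enriched and 4 (6.90%) depleted, and of 30 sodium, calcium, HCN and TRP channel genes 2 (6.67%) were enriched and 4 (13.3%) depleted, beside 4.07% and 3.73% of all genes tested. Kcna1, a delayed-rectifier subunit of axons, ranged from 86.8 to 164 CPM in VMH with a median of 128, above the 46.8 CPM reached elsewhere, and differed by 2.54 ± 0.18 (adjusted p = 9.14e-17). Kcnh7, a member of the ERG family, and Kcns2, a silent modifier subunit, differed by 1.78 and 1.76. Cacna2d1, the calcium channel accessory subunit that binds gabapentin, ranged from 562 to 1093 CPM with a median of 755, beside at most 511 CPM elsewhere, and differed by 1.84 ± 0.06 (adjusted p = 1.86e-31). Ano3, a member of the anoctamin family, ranged from 56.5 to 135 CPM and differed by 3.13 ± 0.22.

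Of 11 glutamate receptor genes, 4 (36.4%) were enriched and 0 depleted, beside 4.07% and 3.73% of all genes. Grm5, a metabotropic receptor, ranged from 199 to 289 CPM in VMH with a median of 222, above the 166 CPM of the highest DMH library, and differed by 1.63 ± 0.08. Grm4 differed by 1.53 ± 0.25 and Grin2a, an NMDA receptor subunit, by 1.17 ± 0.15. Among 13 GABA and glycine receptor genes, 3 (23.1%) were enriched and 1 (7.69%) depleted. Glra1, a glycine receptor subunit, ranged from 59.2 to 102 CPM with a median of 86.8 and reached at most 34.0 CPM elsewhere, for a difference of 2.35 ± 0.15. Glra3, another glycine receptor subunit, differed by 1.69 ± 0.19. Gabra5, a GABA-A receptor subunit, had medians of 279 CPM in VMH, 122 in the ARC, 88.7 in the DMH and 29.5 in the PVN, and differed by 2.03 ± 0.10. The depleted member was Gabre, another GABA-A receptor subunit, with means of 29.6 CPM in VMH, 351 in the ARC, 156 in the DMH and 51.6 in the PVN and a difference of -2.33 ± 0.15. Subunits of receptors for inhibitory transmitters were thus called on both sides.

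Nrgn, neurogranin, which binds calmodulin in dendrites, ranged from 63.9 to 141 CPM in VMH with a median of 93.0, and did not exceed 29.0 CPM elsewhere, for a difference of 3.49 ± 0.24. Ddn, dendrin, a dendritic protein, differed by 3.03 ± 0.32, although 1 DMH library reached 57.1 CPM, above the VMH median of 47.1. Camkv, a kinase-like protein that binds calmodulin, ranged from 257 to 377 CPM against at most 97.1 elsewhere and differed by 2.60 ± 0.11.

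Camkk2, a calmodulin-dependent kinase upstream of AMPK, differed by 2.34 ± 0.22 and Rasal1, a Ras GTPase-activating protein regulated by calcium, by 2.70 ± 0.24. In a list of 35 calcium-binding and synaptic vesicle genes, 6 (17.1%) were enriched and 3 (8.57%) depleted, beside 4.07% and 3.73% of all genes. Hpcal4, a neuronal calcium sensor, was abundant in every nucleus, from 715 to 1072 CPM in VMH and from 191 to 590 elsewhere, and differed by 1.26 ± 0.06, while Doc2a, a calcium sensor of vesicle release, differed by 2.31 ± 0.29 at a VMH median of 12.8 CPM. Syt17, a synaptotagmin, went the other way, from 0.345 to 7.81 CPM in VMH against at least 8.42 CPM in every other library, for a difference of -3.13 ± 0.22.

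Adhesion and guidance genes were called in both directions. Cbln1, a secreted organiser of synapses that bridges neurexins, ranged from 255 to 462 CPM in VMH with a median of 302, whereas medians were 20.8 in the ARC, 62.8 in the DMH and 78.2 in the PVN, and it differed by 2.79 ± 0.16. Nrxn3, a neurexin, was depleted, with 90.0 to 158 CPM in VMH against at least 201 CPM in any other library and a difference of -1.78 ± 0.07 (adjusted p = 1.87e-27). Of 64 synaptic adhesion genes, 10 (15.6%) were enriched and 5 (7.81%) depleted, beside 4.07% and 3.73% of all genes tested. Tenm2, a teneurin, varied little between VMH libraries (573 to 704 CPM, median 639), stood above the 276 CPM of the highest other library and differed by 2.03 ± 0.09.

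Of 51 cadherin genes, 4 (7.84%) were enriched and 1 (1.96%) depleted, beside 4.07% and 3.73% of all genes. Cdh4 differed by 2.01 ± 0.13 and Cdh13 by 1.62 ± 0.08, both without overlap. Of 39 guidance genes, 4 (10.3%) were enriched and 4 depleted. Slit3, a secreted repellent, ranged from 88.3 to 189 CPM in VMH with a median of 92.3 and reached 40.5 CPM at most elsewhere, for a difference of 2.57 ± 0.19, while Efna5, an ephrin, differed by -1.65 ± 0.17. Hmcn2, a large matrix protein of the hemicentin family and the fourth most enriched gene, ranged from 15.5 to 78.5 CPM with a median of 27.6 against at most 10.2 CPM elsewhere, and differed by 4.19 ± 0.33.

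Among transcription factors other than Fezf1 and Zfp831, Lmo3, a LIM-only cofactor, stood out by its level. It ranged from 322 to 610 CPM in VMH with a median of 489, did not exceed 188 CPM elsewhere and differed by 2.02 ± 0.07 (adjusted p = 1.00e-28). Rreb1, a zinc-finger protein, differed by 1.95 ± 0.17, also without overlap. Nr2f2, the nuclear receptor COUP-TFII, was the 1 enriched gene of 12 nuclear receptor genes (8.33%, beside 4.07% of all genes) and was graded, with medians of 126 CPM in VMH, 56.6 in the DMH, 22.4 in the PVN and 5.37 in the ARC. Its difference was 2.45 ± 0.18. Rorb, an orphan nuclear receptor, was the depleted one at -1.19 ± 0.08, with medians of 78.9 CPM in VMH, 120 in the ARC, 155 in the PVN and 345 in the DMH.

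Of 46 homeobox genes, 12 (26.1%) were depleted and 5 (10.9%) enriched, beside 3.73% and 4.07% of all genes tested, and the difference between the directions was not tested. Foxp2, a forkhead factor, ranged from 2.58 to 28.2 CPM in VMH with a median of 5.15, beside medians of 28.5 in the ARC, 52.9 in the DMH and 109 in the PVN, and differed by -2.91 ± 0.21. Nr5a1os, an RNA annotated opposite to Nr5a1, which encodes the factor that defines VMH neurons, was detected in every VMH library at 1.84 to 12.6 CPM with a median of 5.88. Its median was 0 CPM in each other nucleus, and its difference was 3.21 ± 0.30. Strand-specific counting is not stated in the sources used here, so reads of Nr5a1os and Nr5a1 cannot be told apart where the genes overlap. Other genes of the 15 most enriched were Lbhd2 (3.34), Tekt5 (3.33) and D430036J16Rik (2.96).

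**Figure D3:**
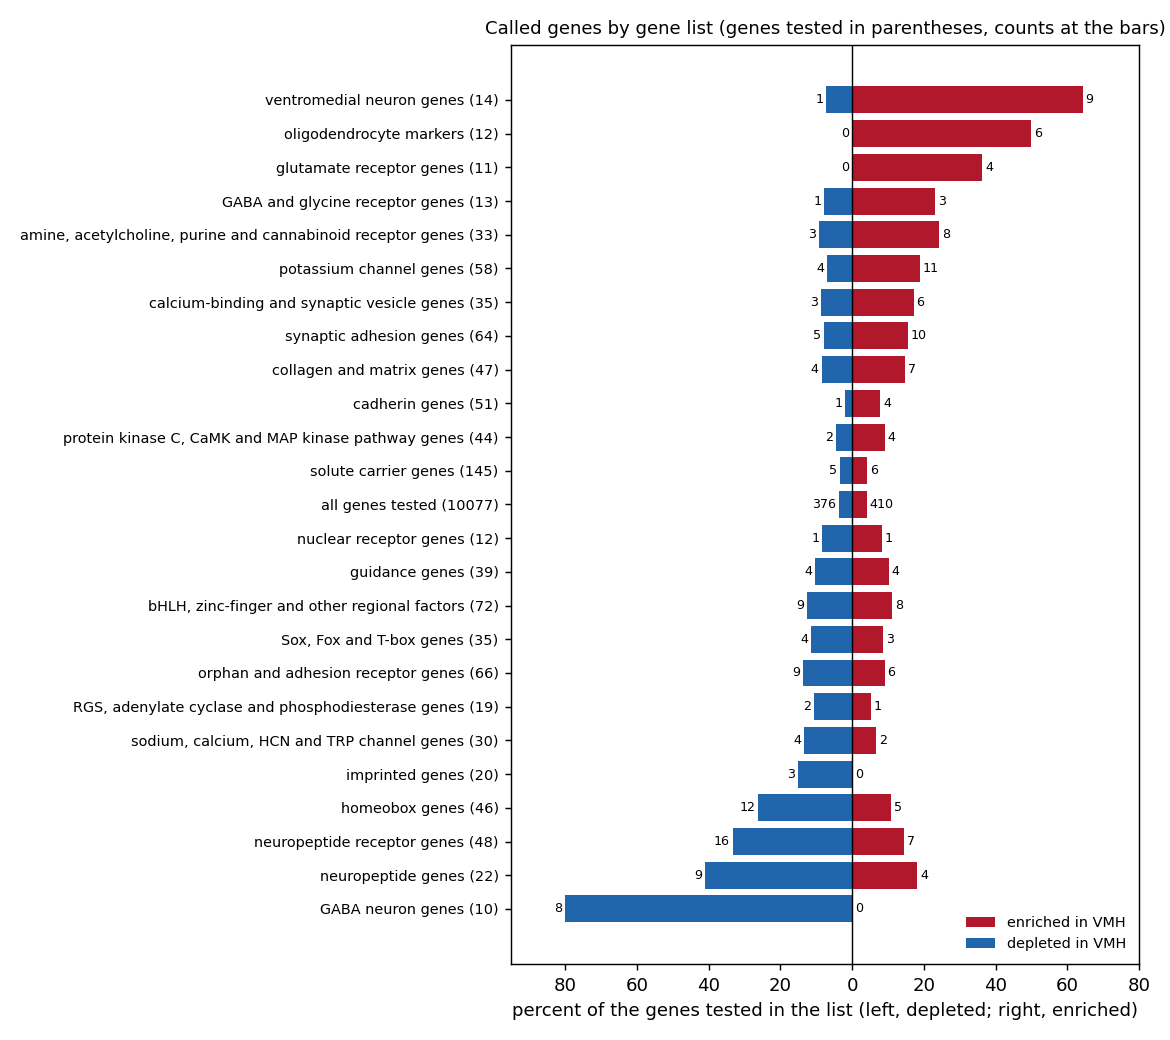
Share of the genes tested in each gene list of at least 10 genes that were enriched (right, red) or depleted (left, blue) in VMH, in percent, with counts at the bars and all 10077 genes for comparison. VMH neuron genes, oligodendrocyte markers and glutamate receptors reach furthest to the right, and GABA neuron genes, neuropeptides and their receptors furthest to the left.

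The transmitter genes separated VMH in opposite directions. Slc17a6 (plus strand, chr7:51622006-51671119) ranged from 404 to 779 CPM in VMH with a median of 545, from 235 to 448 CPM in the PVN, 117 to 254 in the DMH and 59.9 to 187 in the ARC. The VMH range overlapped that of the PVN and lay above those of the other 2 nuclei. The log2 difference was 1.59 ± 0.07 (adjusted p = 3.87e-25), and 0.74 against the PVN alone (adjusted p = 1.22e-09).

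Slc32a1 (plus strand, chr2:158610767-158615748) ranged from 1.22 to 13.2 CPM in VMH with a median of 5.34, compared with medians of 104 in the ARC, 130 in the DMH and 17.4 in the PVN. VMH was below every ARC and DMH library and overlapped the PVN, and the log2 difference was -3.57 ± 0.19 (adjusted p = 2.19e-21). Gad1 had medians of 12.2 CPM in VMH, 20.3 in the PVN, 224 in the ARC and 226 in the DMH, and differed by -3.15 ± 0.13. Against the PVN alone its difference was -0.85 (adjusted p = 5.63e-05).

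Of 10 GABA neuron genes tested, 8 (80%) were depleted and 0 were enriched, beside 3.73% and 4.07% of all genes. The list's median difference was -1.62. Dlx1, a homeobox factor of forebrain GABA neurons, ranged from 0 to 19.3 CPM in VMH with a median of 1.55, beside medians of 56.7 in the ARC, 112 in the DMH and 13.1 in the PVN, and differed by -3.90 ± 0.28. Dlx5 was listed at 0 in 7 of the 11 VMH libraries and differed by -3.21 ± 0.29. Dlx6, Sp9 and Lhx8, further factors of GABA neurons, differed by -1.66, -1.5 and -1.11, and none of them passed against all 3 nuclei. With a pseudocount of 2, Sp9 and Lhx8 were no longer called.

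Isl1, a LIM homeobox factor on the list that was not called, had medians of 76.6 CPM in the ARC, 31.6 in the DMH, 12 in VMH and 0.419 in the PVN, so VMH lay between its neighbours. Summed over the list, GABA neuron genes took 168 to 304.7 CPM in VMH, 247 to 400 in the PVN, 605 to 699 in the ARC and 812 to 1033 in the DMH.

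The lowest gene of all against its neighbours was Th, tyrosine hydroxylase, which makes the precursor of dopamine and noradrenaline (minus strand, chr7:142892752-142931128). It was listed at 0 in 3 VMH libraries, had a VMH median of 1.36 CPM and a maximum of 5.61, and ranged from 28.4 to 80.2 CPM in the ARC, 25.6 to 108 in the DMH and 16.7 to 83.2 in the PVN. The groups did not overlap. The log2 difference was -4.95 ± 0.25 (adjusted p = 1.25e-22), and it was near the same size against each nucleus, at -4.98, -5.12 and -4.75 for the ARC, DMH and PVN.

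**Figure D4:**
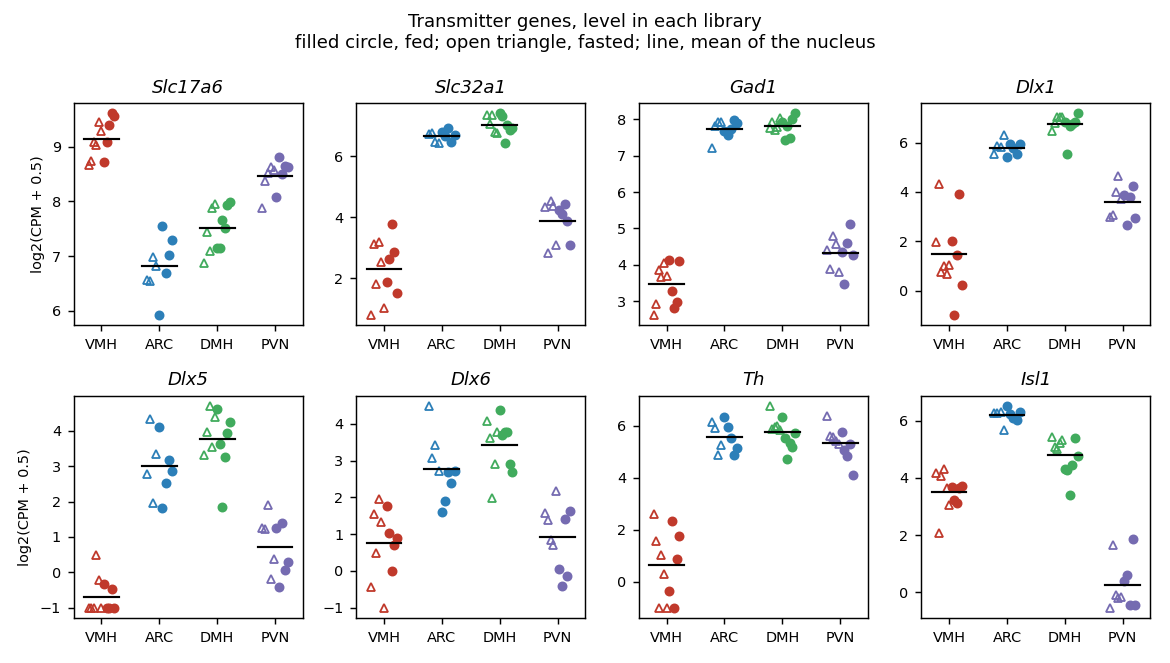
Level of 8 transmitter and GABA lineage genes in each library as log2(CPM + 0.5), by nucleus, with filled circles for fed mice, open triangles for fasted mice and a line at the mean of the nucleus. Slc17a6 is highest in VMH, Th is lowest in VMH without overlap, and Slc32a1 and Gad1 are low in VMH and the PVN and high in the ARC and DMH.

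The neuropeptide list also held genes of other secreted proteins. Of its 22 genes, 9 (40.9%) were depleted and 4 (18.2%) enriched, beside 3.73% and 4.07% of all genes tested. The 4 enriched were Cbln1, Bdnf, Pmch and Tac1, of which Cbln1 and Bdnf do not encode neuropeptides. Of the 9 depleted, only Cck and Vgf, a secreted neuronal protein named after its values were seen (-1.57 ± 0.15), were depleted against each nucleus. Several of the others are known markers of 1 neighbour. Npy had a median of 326 CPM in the ARC and between 1.51 and 3.00 CPM in the medians of the other 3 nuclei. Its difference to the DMH was 0.41 and to the PVN 0.39, so VMH was not lower than these. Avp, vasopressin, ranged from 395 to 1475 CPM in the PVN and reached at most 2.76 CPM in VMH, and Crh, corticotropin-releasing hormone, was listed at 0 in 8 of the 11 VMH libraries and ranged from 14.5 to 126 CPM in the PVN. Npvf and Hcrt, the orexin precursor, were highest in the DMH captures, with medians of 69.7 and 91.9 CPM there and 0.368 and 0.872 in VMH. VMH was not lower than the ARC or PVN for Npvf (0.67 and 0.71) or Hcrt (0.21 and 0.55), nor than the DMH for Avp (0.10), which differed from the ARC by -0.77 and from the PVN by -8.44. Crh differed from the ARC by -0.08, from the DMH by -1.84 and from the PVN by -5.81.

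Pmch, melanin-concentrating hormone, a peptide of lateral hypothalamic neurons, was intermediate. It ranged from 5.67 to 75.9 CPM in VMH with a median of 26.7, from 149 to 631 CPM in the DMH, and reached at most 3.18 CPM in the ARC or PVN. VMH was therefore higher than 2 nuclei and lower than the third, with log2 differences of 4.12 to the ARC, 3.98 to the PVN and -3.43 to the DMH. Against the mean of the 3 nuclei the difference was 1.56 ± 0.25, and 0.94 with a pseudocount of 2, which ended the call.

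Most other markers of the neighbouring nuclei were depleted against the mean, as were 3.73% of all genes. All 4 arcuate genes were depleted against the mean and 0 against each nucleus, among them Crabp1, a retinoid-binding protein (-2.83), Ghsr, the ghrelin receptor (-1.60), and Rxfp1, a relaxin receptor (-1.09). Crabp1 differed by -7.28 from the ARC, -1.33 from the DMH and 0.12 from the PVN, and Rxfp1 by -4.0, 0.29 and 0.45. The call of Rxfp1 was lost without VMH-111 (-0.99) or VMH-125 (-0.95), both fed. Of 5 paraventricular genes, 4 were depleted and 0 against each nucleus, including Nrn1, neuritin (-3.43 against the mean, with -6.45 against the PVN, -3.53 against the DMH and -0.32 against the ARC), and Pou3f2, a POU factor (-1.20), which was higher than in the ARC by 1.00. Brs3, an orphan receptor of the bombesin family, differed by -2.11 ± 0.35 and was lower than in each nucleus, and Neurod2, a bHLH factor listed at 0 in 7 VMH libraries, by -1.20. The difference of Neurod2 was -3.04 against the PVN and 0.26 against the ARC, and its call ended with a pseudocount of 2.

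Other strongly depleted genes were low against all 3 neighbours. Dgkk, a diacylglycerol kinase on the X chromosome, ranged from 18.3 to 50.2 CPM in VMH with a median of 33.0, and from 140 to 924 CPM elsewhere, for a difference of -3.50 ± 0.10 (adjusted p = 2.46e-33). Gpr101, an orphan receptor, ranged from 53.3 to 110 CPM against at least 126 CPM elsewhere and differed by -1.91 ± 0.07. Stk32a, a protein kinase, and Krt90, a keratin, differed by -3.27 and -3.28. Among 6 immediate early genes, which report recent activity, Fosl2 and Jun were depleted at -2.38 ± 0.22 and -1.30 ± 0.14, and 0 were enriched, where 3.73% and 4.07% of all genes were.

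Of 20 imprinted genes tested, 3 (15%) were depleted and 0 were enriched, beside 3.73% and 4.07% of all genes, and in VMH these 3 lay below every other library, as did 0.238% of all genes. Asb4, a subunit of a ubiquitin ligase, ranged from 1.53 to 21.8 CPM in VMH with a median of 11.3, compared with 33.7 to 467 CPM elsewhere, and differed by -3.89 ± 0.16. Dlk1 ranged from 64.4 to 181 CPM with a median of 104, compared with at least 367 CPM elsewhere, and differed by -2.65 ± 0.11. Peg10, which derives from a retrotransposon, ranged from 243 to 436 CPM in VMH with a median of 349, from 578 CPM upwards in the PVN and from 910 CPM upwards in the DMH, and differed by -1.54 ± 0.06. Summed over the 20 genes, imprinted genes took 3653 to 4617 CPM in VMH and 5292 to 6821 CPM elsewhere. The list's median difference was -0.34, and Rian and Usp29 were higher in VMH by 0.48 and 0.47, short of a call.

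Markers of other cell types were measured beside these contrasts. Of 12 oligodendrocyte genes, 6 (50%) were enriched and 0 depleted, beside 4.07% and 3.73% of all genes, with a median difference of 0.96. Mbp, myelin basic protein, ranged from 401 to 947 CPM in VMH with a median of 537, compared with medians of 144 in the ARC, 339 in the DMH and 206 in the PVN, and differed by 1.29 ± 0.10. Mobp, another myelin gene, differed by 1.32 ± 0.15, and Opalin, of mature oligodendrocytes, by 1.98 ± 0.40. Summed over the list, the level was 1284 to 1949 CPM in VMH, 357 to 908 in the ARC, 556 to 1797 in the DMH and 454 to 779 in the PVN, and none of the defining markers was at 0 in VMH.

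The precursor markers Pdgfra and Cspg4 differed by 0.04 and 0.06. The part of the myelin signal in other enriched genes was not tested. None of 8 astrocyte, 7 microglia and 4 pan-neuronal genes was called in either direction, beside 4.07% of all genes enriched and 3.73% depleted, their summed levels ranging in VMH from 695 to 1296, from 92.5 to 208 and from 2127 to 2519 CPM. Of 7 vessel genes 1 was enriched, Acta2, an actin of smooth muscle, which ranged from 12.2 to 32.1 CPM in VMH with a median of 16.1 against medians of 3.53 to 5.19 elsewhere. Gpr50, an orphan receptor known from tanycytes that line the ventricle, had medians of 1.53 CPM in VMH, 2.42 in the PVN, 45.4 in the ARC and 172 in the DMH, and differed by -3.99 ± 0.27, with no call against the PVN.

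**Figure D5:**
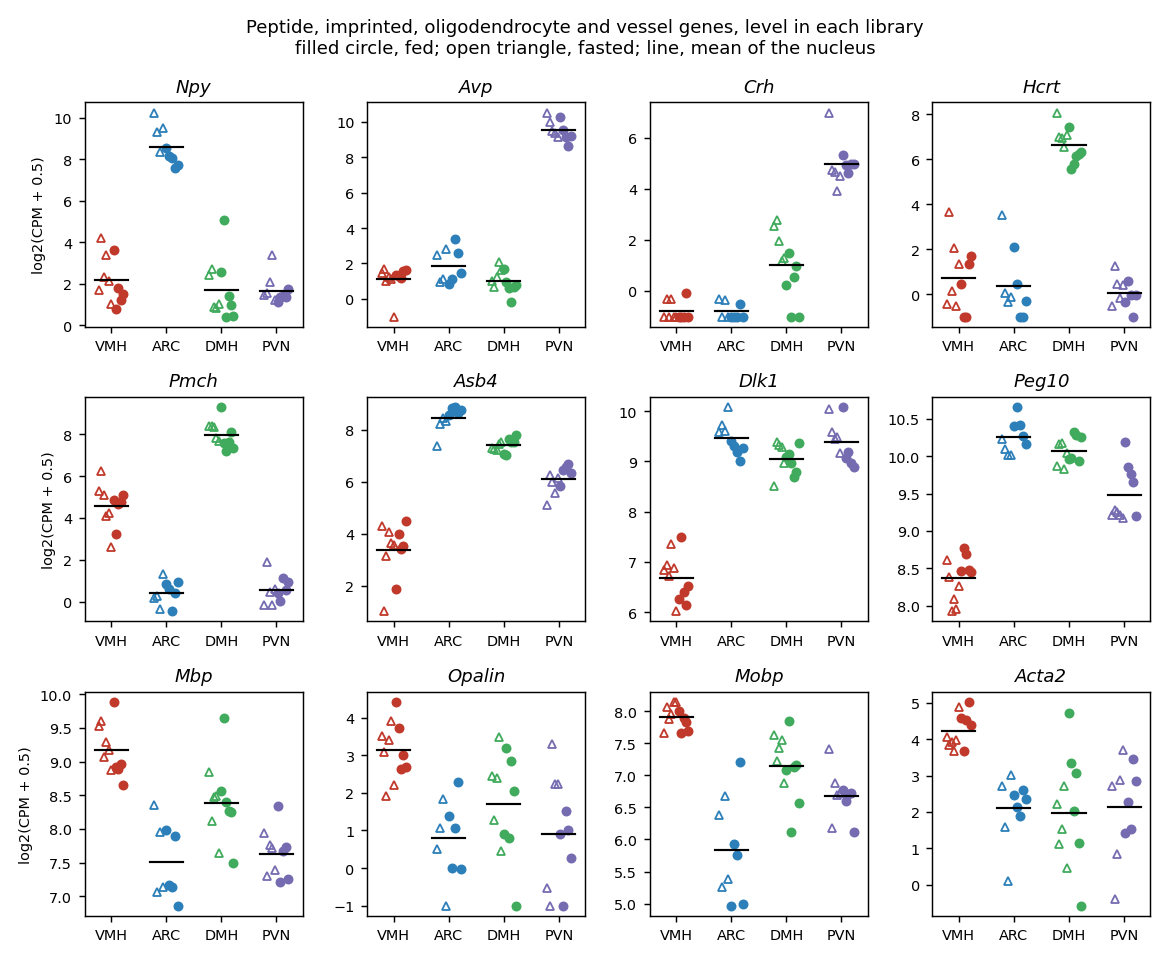
Level of 12 genes in each library as log2(CPM + 0.5), by nucleus: neuropeptides, the imprinted genes Asb4, Dlk1 and Peg10, the oligodendrocyte genes Mbp, Opalin and Mobp, and Acta2, with filled circles for fed mice, open triangles for fasted mice and a line at the mean of the nucleus. The peptides are each high in 1 nucleus, Pmch is intermediate in VMH, the imprinted genes are lowest in VMH without overlap, and oligodendrocyte genes are higher in VMH with overlap.

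Whether the VMH profile changed with feeding was tested as the interaction of nucleus and state. No gene had a VMH difference that depended on state at an adjusted p under 0.1 with limma (0 genes, smallest adjusted p = 0.385), while 502 of 10077 genes had an unadjusted p under 0.05. The difference of Fezf1 was 5.76 in fed and 5.59 in fasted mice, that of Slc17a6 was 1.58 and 1.59, that of Gad1 was -3.18 and -3.10, and that of Th was -4.60 and -5.32. In batches 1, 2 and 3 the difference of Slc17a6 was 1.61, 1.53 and 1.62, that of Gad1 -3.19, -3.16 and -3.08, and that of Th -5.12, -5.19 and -4.76.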

How the data were processed

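Laser-captured nuclei were sequenced after amplification of total RNA. Per the labels and the methods of the study, the authors aligned reads with TopHat2 (2.0.11) to GRCm38, quantified genes with Cufflinks (2.2.1) and removed outlying libraries. The deposited values are CPM for 10127 genes, the sum per library being 554896 to 689010, and 2 columns that matched no sample were not used. Low CPM values fell on steps of 1 read (97.6 to 98.9% within 0.1 step), from which depth was estimated, but not all values were whole reads and no count test was run. With limma (3.58.1, R 4.3.3), log2(CPM + 0.5) was fitted to nucleus, state and batch with the mouse as a random block (correlation -0.00368). The number in each title was taken as the mouse, so that nuclei of 1 mouse share an animal. Residuals of 57 same-mouse pairs had a median correlation of -0.07, and 0 pairs exceeded 0.1. Adjusted p-values follow Benjamini-Hochberg over 10077 genes. Each mouse is 1 replicate of a nucleus. Gene positions are from GENCODE M21. Named genes were the 15 most enriched and 10 most depleted called genes of at least 5 CPM, up to 4 per direction from each of 36 gene lists, and members of the lists of nucleus and transmitter genes, a few of which are not reported here. The VMH contrast, its markers, lists and tests were chosen with earlier results of these data known. Alternatives were other pseudocounts, filters, blocks, scalings, weights, single states or batches, and leaving out each library. Reads were also simulated with 200 changed genes among 10102. The fit called 50 of 50 genes at each true log2 difference of 1.5, -1.5, 3 and -3. It called 0 of 9902 unchanged genes, of which 30 had an adjusted p under 0.1 without the size threshold. The changed genes had means of at least 5 CPM, and all genes shared 1 simulated spread. The simulation therefore does not measure how calls fare at lower levels or in more variable genes.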

Additional observations from a re-analysis of the deposited data

Results flagged for a closer look

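In 195 sets of fed or fasted VMH libraries, for the genes named above by the rule for named genes, 34 had 1 library far from the rest of its set by Dixon's criterion, where about 9.8 are expected by chance at 1 set in 20. The sets are not independent, since the same libraries recur in them. All values are CPM, and many lie near the level of a single read.

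VMH-111 (fed) held 7 of these. It was the highest for Neurod2 (0.291), Cbln1 (462, others at most 292), Npy (11.9), Slit3 (189, others at most 101.5) and Mbp (947, others at most 499), and the lowest for Kcns2 (4.36) and Camkk2 (39.3). VMH-86 (fasted) held 7. It was the highest for Dlx1 (19.3, others at most 3.42), Sp9 (2.14), Grpr (6.13), Hcrt (11.9), Nrn1 (3.06) and Foxp2 (28.2, others at most 6.83), and the lowest for Gpr101 (53.3).

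VMH-125 (fed) was the highest for Dlk1 (181, others at most 90.8), Grpr (15.7) and Ghsr (9.84), and the lowest for Kcna1 (86.8). VMH-85 (fasted) was the highest for Cckbr (54.2), Camkv (377) and Jun (35.6), and the lowest for Rorb (45.9). VMH-311 (fasted) was the highest for Mc4r (8.25), Brs3 (18.6) and Acta2 (28.9), VMH-101 (fasted) for Crabp1 (10.1) and Fosl2 (27.7), and VMH-305 (fasted) for Lhx8 (0.736) and Grm5 (261).

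VMH-100 (fasted) was the highest for Rxfp1 (4.80) and Npvf (6.30). Among fed libraries, VMH-308 was the highest for Dlx1 (14.7) and Crh (0.452), and VMH-127 for Nrn1 (3.00). Leaving out any single library ended 2 of the calls named in the report, those of Tac1 and Rxfp1.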

How the results depend on the processing

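Counts of called genes changed by more than 1.5 times in 4 of the settings run. With a pseudocount of 2, enriched genes fell from 410 to 271 and depleted genes from 376 to 202, and genes lower in VMH fell to 295 against the ARC, 216 against the DMH and 322 against the PVN. In fasted mice alone, 118 genes were depleted against each nucleus instead of 192, and in batch 2 alone 180 were enriched against each nucleus instead of 278. In batch 1 alone, with 3 VMH libraries, the counts were 231 enriched and 177 depleted, 51 and 32 against each nucleus, 246 higher and 164 lower than in the ARC, 108 and 98 than in the DMH, and 250 and 205 than in the PVN. These single-state and single-batch fits had fewer samples, and the cause of the change with the pseudocount was not tested. Without a replicate block the counts were 410 and 376, and with fixed mouse terms 418 genes were enriched.

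Leaving out each library in turn gave 401 to 424 enriched and 371 to 403 depleted genes, 267 to 285 and 186 to 214 against each nucleus, 551 to 578 higher and 461 to 493 lower than in the ARC, 337 to 359 and 379 to 424 than in the DMH, and 569 to 631 and 526 to 565 than in the PVN. Genes whose VMH difference depended on state numbered 0 to 1, the 1 arising without VMH-125. Of the 94 called genes named in the report by the rule for named genes, 22 missed the threshold in at least 1 setting that left out no single library (46 pairs of a gene and a setting), and none changed sign in any setting run. A pseudocount of 2 ended the calls of Lhx8, Neurod2, Pmch, Rxfp1, Sp9 and Tac1, and library weights those of Rxfp1 and Tac1. Which of the other genes missed the threshold, and in which settings, is not listed here. Lepr and Mc4r, which were not called, changed sign: Lepr to 0.27 in fed mice, 0.023 in batch 2, 0.19 in batch 3 and -0.23 to 0.056 when each library was left out, positive without VMH-86 alone, and Mc4r to 0.23 in fed mice and 0.19 in batch 3. Levels under a few CPM rest on few reads, with 1 read worth 0.169 to 0.515 CPM in VMH libraries.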

Other observations

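The remaining gene lists were called on both sides, and their counts are given beside 4.07% enriched and 3.73% depleted over all genes tested. Of 35 Sox, Fox and T-box genes 3 were enriched and 4 depleted, and of 72 bHLH, zinc-finger and other regional factors 8 and 9. Among 66 orphan and adhesion receptors 6 were enriched and 9 depleted and among 19 RGS, adenylate cyclase and phosphodiesterase genes 1 and 2. Of 47 collagen and matrix genes 7 were enriched and 4 depleted, and of 44 protein kinase C, CaMK and MAP kinase pathway genes 4 and 2. Of 145 solute carriers 6 (4.14%) were enriched and 5 (3.45%) depleted, close to the shares over all genes.

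Of 5 glutamate neuron genes, 2 were enriched, Slc17a6 among them, and 1 was depleted (Neurod2). Of 4 dorsomedial and lateral hypothalamic genes, 1 was enriched (Pmch) and 3 were depleted (Npvf, Hcrt and Brs3). Of 5 ependymal and tanycyte genes, 1 was enriched (Crym, 1.28) and 1 depleted (Gpr50). Crym was low, with a mean of 4.58 CPM in VMH, and was not higher than in the ARC, where its log2 difference was -0.06. Th was the 1 gene tested of the amine and acetylcholine list.

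Among imprinted genes that were not called, Nnat and Nap1l5 differed by -0.64 and -0.56, Ndn and Magel2, which lie in the same imprinted domain as Snord116, by -0.28 each, and Kcnk9 by -0.81. All mice carried the deletion, so these values say nothing of its effect.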
